A study of Homo sapiens with 61 samples.

Results

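The data describe 83 protein-coding zinc finger genes on the short arm of human chromosome 19, in chromatin immunoprecipitation sequencing lists of H3K4me3 and XPC from U2OS cells, a human osteosarcoma line. The genes were chosen by name and position: a symbol made of ZNF and a number, on chromosome 19, with a gene start below 26 Mb in hg38. They are 83 of the 19970 protein-coding genes measured. The same chromosome holds 157 further ZNF genes at or above 26 Mb and 558 other protein-coding genes below it. The set was proposed with the H3K4me3 coverage of these libraries in view, so its H3K4me3 levels are a description without a test. Adjusted p-values for single genes come from a fit over all genes and do not support the choice of the set.

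Cells were wild-type (WT) or ASH1L-/-, and either were not irradiated or received 20 J/m2 of UV-C and were taken 1 h or 3 h later. ASH1L-/- cells carry CRISPR/Cas9 deletions within exons of ASH1L, a histone methyltransferase, and the comparison between genotypes asks whether H3K4me3 and XPC on chromatin after UV differ where this enzyme is missing. Each of the 6 groups had 3 H3K4me3 libraries, called biological replicates by the labels, with peaks called against input DNA. The 19 XPC lists (4 of unirradiated WT cells and 3 of each other group) were called against the immunoprecipitate of XPC-/- cells, so every XPC value is relative to cells without the protein. The genotype comparison rests on a single edited line, and differences between lines cannot be told apart from the deletion. H3K4me3 was present in 2.67 to 2.87 kb of the ASH1L promoter window in the 9 WT libraries and in 2.64 to 2.86 kb in the 9 ASH1L-/- libraries. The deleted exons lie outside that window, so this value does not check the deletion.

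Zinc finger genes of this kind encode DNA-binding proteins with arrays of C2H2 fingers, and many carry a KRAB domain. KRAB proteins bind mostly to transposable elements and recruit the co-repressor TRIM28 with the H3K9 methyltransferase SETDB1, which silences the bound sequence. The genes multiplied by tandem duplication and stand in clusters, many of them on chromosome 19, and the whole finger array is usually encoded in the last exon. H3K4me3 is the histone mark of active promoters and normally sits at the start of a gene. XPC recognises UV lesions for nucleotide excision repair.

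The 83 genes fell into 6 position groups separated by gaps of more than 500 kb. The first group held 5 genes at 2.82 to 2.94 Mb (ZNF554 to ZNF77) and the next held ZNF557 and ZNF358 at 7.07 to 7.52 Mb. Further along, 13 genes (ZNF414 to ZNF846) stood at 8.51 to 9.79 Mb and 25 (ZNF653 to ZNF791) at 11.48 to 12.64 Mb. ZNF333 stood alone at 14.69 to 14.73 Mb. The last group, nearest the centromere at 19.67 to 24.13 Mb, held 37 genes (ZNF101 to ZNF254) and is called the centromere-proximal cluster here. Coding sequences of the GENCODE transcripts held 3 to 36 complete C2H2 fingers (median 12), with 36 in ZNF208 and 31 in ZNF91, and 69 of the 83 genes matched a KRAB box pattern. The centromere-proximal cluster had the pattern in 32 of its 37 genes and the group at 11.48 to 12.64 Mb in 23 of 25. ZNF490 and ZNF791 start 107 bp apart in opposite directions and share a promoter window, so their promoter values are not independent.

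Promoters are shown for 5 genes of the centromere-proximal cluster. The promoters were chosen to set genes marked in unirradiated WT cells (ZNF430, ZNF91) beside genes unmarked there (ZNF626, ZNF681) and beside ZNF726, which carried H3K4me3 in ASH1L-/- cells. Each runs from 250 bases before to 50 bases after the RefSeq gene start on GRCh38.p14, 5′ to 3′ on the strand of the gene, and capitals mark CCAAT or its reverse complement ATTGG. The windows are chr19:21020407-21020706 (plus strand) for ZNF430, chr19:20661522-20661821 (minus) for ZNF626, chr19:23395422-23395721 (minus) for ZNF91, chr19:23758842-23759141 (minus) for ZNF681 and chr19:23914636-23914935 (plus) for ZNF726.
ZNF430: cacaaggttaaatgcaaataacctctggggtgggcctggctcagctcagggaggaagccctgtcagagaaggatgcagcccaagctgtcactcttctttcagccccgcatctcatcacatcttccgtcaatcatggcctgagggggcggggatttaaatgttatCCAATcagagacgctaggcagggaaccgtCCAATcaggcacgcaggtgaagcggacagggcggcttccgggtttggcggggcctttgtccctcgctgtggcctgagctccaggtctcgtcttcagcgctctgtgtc
ZNF626: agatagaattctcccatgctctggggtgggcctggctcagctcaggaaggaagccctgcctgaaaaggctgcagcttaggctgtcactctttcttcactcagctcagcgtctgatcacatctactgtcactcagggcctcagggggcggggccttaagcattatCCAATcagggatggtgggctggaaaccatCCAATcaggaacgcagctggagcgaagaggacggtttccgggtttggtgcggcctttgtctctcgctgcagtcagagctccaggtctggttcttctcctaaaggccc
ZNF91: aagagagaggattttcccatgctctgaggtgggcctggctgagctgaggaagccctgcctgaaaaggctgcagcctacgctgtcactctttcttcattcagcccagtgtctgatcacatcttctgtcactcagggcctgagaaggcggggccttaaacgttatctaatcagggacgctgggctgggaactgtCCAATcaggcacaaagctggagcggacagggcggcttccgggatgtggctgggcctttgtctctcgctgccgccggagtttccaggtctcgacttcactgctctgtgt
ZNF681: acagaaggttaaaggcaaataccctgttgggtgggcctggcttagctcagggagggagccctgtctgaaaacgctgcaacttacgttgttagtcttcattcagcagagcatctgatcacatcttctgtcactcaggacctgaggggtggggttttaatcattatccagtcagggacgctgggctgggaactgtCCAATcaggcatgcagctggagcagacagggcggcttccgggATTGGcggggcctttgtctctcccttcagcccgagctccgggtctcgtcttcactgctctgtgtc
ZNF726: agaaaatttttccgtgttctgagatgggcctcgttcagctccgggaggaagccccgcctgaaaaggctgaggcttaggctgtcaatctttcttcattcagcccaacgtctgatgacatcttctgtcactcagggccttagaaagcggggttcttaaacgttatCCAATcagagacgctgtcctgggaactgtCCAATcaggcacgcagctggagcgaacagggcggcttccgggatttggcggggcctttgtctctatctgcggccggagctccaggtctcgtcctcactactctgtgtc

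ZNF430, ZNF626 and ZNF726 each hold a pair of CCAAT letters on the gene strand, ZNF91 holds 1, and ZNF681 holds 1 CCAAT and 1 ATTGG. Compared position by position without gaps, ZNF430 and ZNF626 shared 62.0% of their bases, ZNF430 and ZNF681 56.7%, and ZNF91 and ZNF726 51.7%, whereas ZNF430 and ZNF91 shared 30.3%. RefSeq promoters were matched for 73 of the 83 genes. ZNF559, ZNF763, ZNF506, ZNF253, ZNF738, ZNF676, ZNF729, ZNF98, ZNF99 and ZNF728 were not matched. CCAAT on either strand was found in 60 of the 73 (82.2%), compared with 34.6% of all 35116 RefSeq promoters of this length and 36.1% of 183 promoters of ZNF genes on chromosome 19 above 26 Mb. It was present in all 29 matched promoters of the centromere-proximal cluster and in 31 of 44 (70.5%) of the other groups. A pair of CCAAT on the gene strand whose starts lay 28 or 29 bases apart was found in 18 of the 29 (62.1%), in 0 of the 44, in 0 of the 183, and in 51 of 21493 promoters of other protein-coding genes (0.237%). The pair was present in 5 of the 11 matched cluster promoters that carried H3K4me3 in unirradiated WT cells and in 13 of the 18 that did not. The spacing was chosen after the sequences were seen, and the shared ancestry of these genes means that they are not independent cases. The GC box letters GGGCGG, on either strand, were found in 82.2% of the 73 promoters in 45.0% of all RefSeq promoters, in 56.7% of those of other protein-coding genes, in 61.2% of those of ZNF genes on chromosome 19 above 26 Mb and in 71.9% of those of other genes on the chromosome below 26 Mb. CpG dinucleotides numbered 8 to 34 per 300 bases (median 15), with a median of 17 in the 53 promoters marked in unirradiated WT cells and 10 in the 20 unmarked ones. That contrast followed position: within the centromere-proximal cluster, which holds 18 of the 20, the medians were 11 for 11 marked and 10 for 18 unmarked promoters, and it was 18 over the 44 promoters of the other groups.

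H3K4me3 lists held 72984 to 142688 peaks per library and covered 70.07 to 132.4 Mb. Coverage of WT libraries was 80.1 ± 11.9 Mb (SD, n = 3) without UV, 109 ± 13.9 Mb 1 h after it and 119 ± 18.9 Mb after 3 h, and that of ASH1L-/- libraries was 82.3 ± 8.81, 94.2 ± 13.6 and 95.5 ± 12.5 Mb. Covered length in the whole genome thus also differed between groups. Its part in each result was addressed only by scaling every library to the same total. The values are lengths under called peaks, so more marked cells and more mark per cell cannot be told apart. The peak lists hold no read counts, and the read totals that the study states for its libraries were not used here. Among cell type markers, 10 of 13 mesenchymal and osteoblast genes carried H3K4me3 at the promoter in unirradiated cells of both genotypes. So did 5 of 7 epithelial, 3 of 3 neuronal, 1 of 2 hepatocyte and 0 of 5 blood genes. Over all genes the shares were 69.7% in WT and 69.6% in ASH1L-/- cells, so these lists do not single out the labelled cell type.

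A promoter window reached 2 kb to each side of the gene start, and a promoter was called marked when a peak covered any of it in at least 2 of 3 libraries. In unirradiated WT cells 56 of the 83 promoters were marked (67.5%), against 69.7% of all 19970 genes and 153 of the 157 ZNF genes above 26 Mb. The median window of the 83 genes held 1.55 kb under peaks, against 1.85 kb over all genes and 2.28 kb for the ZNF genes above 26 Mb. The mark was present in all 18 libraries at 53 promoters and in 1 to 17 libraries at 28, and the promoters of ZNF491 and ZNF676 were never covered. The highest mean levels in unirradiated WT cells were 2.82 ± 0.312 kb for ZNF266, 2.66 ± 0.688 kb for ZNF426, 2.62 ± 0.16 kb for ZNF699, 2.56 ± 0.0923 kb for ZNF700 and 2.54 ± 0.161 kb for ZNF490 (SD, n = 3). These levels are within the spread of one another. At the low end, 20 promoters had a mean of 0, among them ZNF556, ZNF491, ZNF763, ZNF506 and ZNF253.

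**Figure D1:**
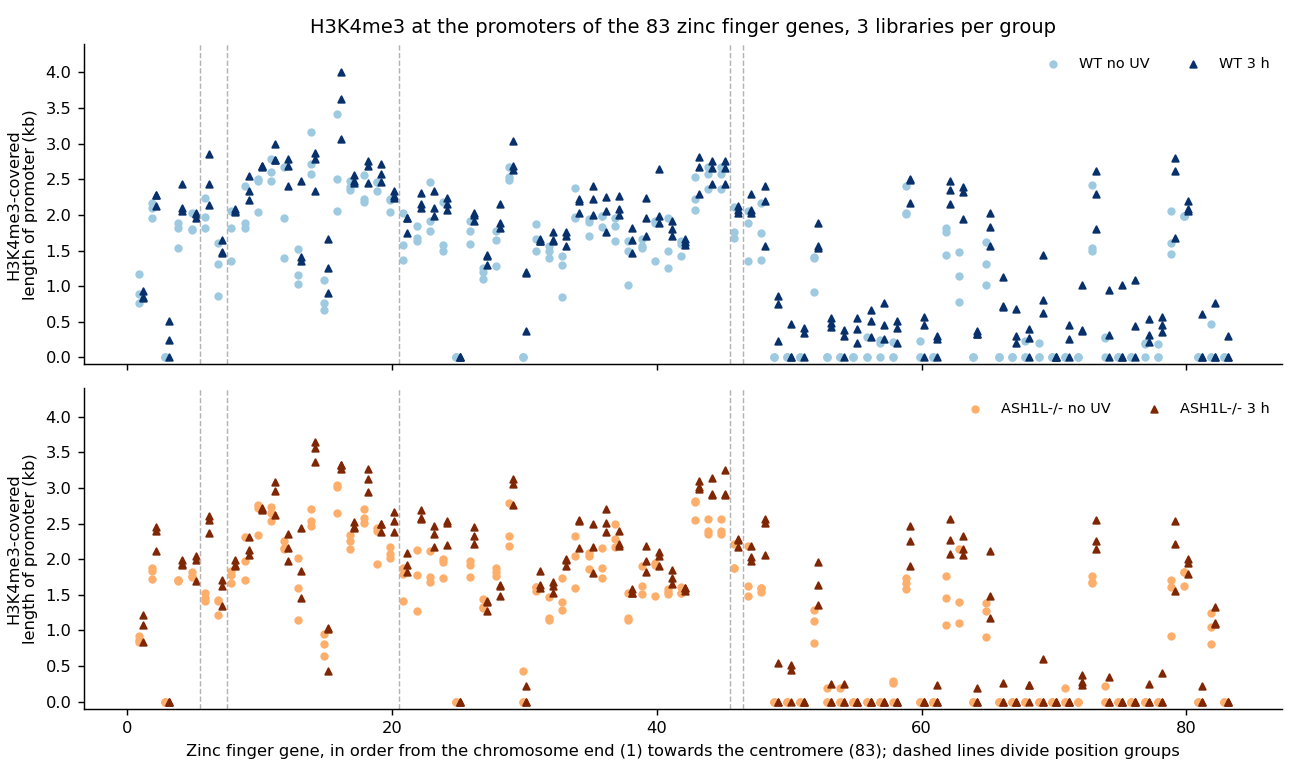
H3K4me3-covered length of the promoter window in kb (vertical axis) for each of the 83 genes in chromosomal order (horizontal axis), with WT cells above and ASH1L-/- cells below and a point for each library, without UV (circles) or at 3 h (triangles). Unmarked promoters gather in the centromere-proximal cluster, where 13 of 37 were marked in unirradiated WT cells, while 13 of 13 were marked at 8.51 to 9.79 Mb.

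Marked and unmarked promoters were divided by position. All 13 promoters at 8.51 to 9.79 Mb were marked in every group, and 23 or 24 of the 25 at 11.48 to 12.64 Mb were marked. In the centromere-proximal cluster 13 of 37 were marked in unirradiated WT cells. The last genes of the set before the centromere, ZNF681, ZNF726 and ZNF254 (23.74, 23.91 and 24.03 Mb), had 0, 0.157 and 0 kb in unirradiated WT cells. The nearest ZNF genes outside the set lie across the centromere on the long arm, and of these ZNF536 (30.22 Mb) was likewise at 0 kb, while ZNF507 and ZNF302 (32.35 and 34.68 Mb) had 2.43 and 3.34 kb.

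After UV the number of marked promoters in WT cells was 73 at 1 h and 76 at 3 h (88.0% and 91.6%). ASH1L-/- cells had 55, 60 and 57 without UV and at these times (66.3%, 72.3% and 68.7%). Over all genes the shares were 69.7%, 71.8% and 71.9% in WT cells and 69.6%, 70.6% and 69.9% in ASH1L-/- cells. Most of the added promoters belonged to the centromere-proximal cluster, where WT cells had 13 of 37 marked without UV, 29 after 1 h and 31 after 3 h, and ASH1L-/- cells had 12, 16 and 14. By library, WT cells had 12, 13 and 18 such promoters without UV, 24, 30 and 29 at 1 h, and 34, 27 and 29 at 3 h. ASH1L-/- cells had 12, 11 and 16, then 11, 24 and 19, and 22, 14 and 15. The WT libraries after UV lay above every unirradiated library, while those of ASH1L-/- cells overlapped the unirradiated ones. The added peaks were weak. With only the 70000 strongest peaks of each library, a restriction chosen after the data were seen, the cluster had 10, 12 and 13 marked promoters in WT cells and 11, 11 and 11 in ASH1L-/- cells, and the WT libraries held 11, 10 and 11 without UV, 13, 21 and 12 at 1 h and 21, 14 and 14 at 3 h. With only peaks of at least 5-fold enrichment over input it had 10, 10 and 10, and 9, 11 and 11. Over all 19970 genes the 5-fold peaks marked 12564, 13219 and 12792 promoters in WT and 10477, 12711 and 10391 in ASH1L-/- cells. The 70000 strongest marked 13721, 14035 and 13914, and 13661, 13918 and 13766. With −log10 q of at least 1.3 the cluster had 13, 29 and 31, and 12, 15 and 13. All genes then had 13844, 14309 and 14311, and 13850, 14069 and 13926.

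**Figure D2:**
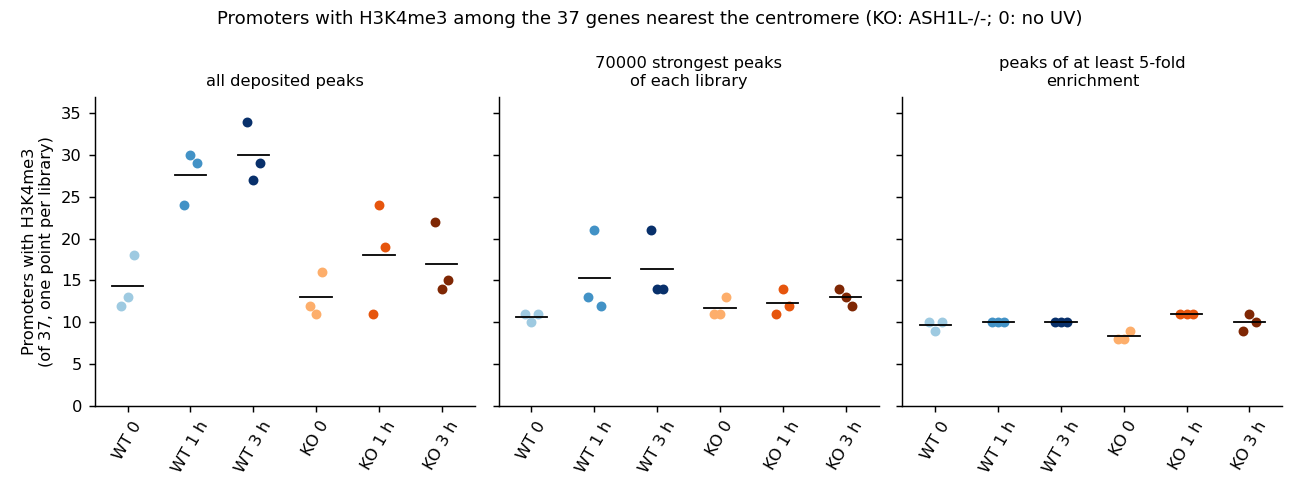
Number of promoters with H3K4me3 among the 37 genes of the centromere-proximal cluster (vertical axis) by genotype and time (KO, ASH1L-/-; 0, no UV), for all peaks, the 70000 strongest peaks of each library and peaks of at least 5-fold enrichment. Points are single libraries and lines are group means: with all peaks, WT libraries have 12 to 18 without UV and 24 to 34 after UV, which become 10 to 11 and 12 to 21 with the 70000 strongest peaks and 9 to 10 and 10 with the 5-fold minimum.

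The promoters of 3 genes were marked in every group of a single genotype and in no group of the other. The promoter of ZNF726, a gene with 14 fingers, held 0, 0 and 0.471 kb in the WT libraries without UV, 0.257, 0 and 0 kb at 1 h and 0.758, 0 and 0 kb at 3 h. The ASH1L-/- libraries held 1.05, 0.815 and 1.25 kb without UV, 1.54, 1.96 and 1.64 kb at 1 h and 1.33, 1.09 and 1.11 kb at 3 h. The lowest of the 9 ASH1L-/- libraries was above the highest of the 9 WT libraries. Without UV the promoter of ZNF726 was 0.88 ± 0.19 kb longer in ASH1L-/- cells (limma, SE, adjusted p = 0.019). This call was lost in 4 of 18 fits (0.77 to 0.88 kb), those without WT unirradiated replicate 1 or 2 or ASH1L-/- unirradiated replicate 1 or 3. With peaks of at least 5-fold enrichment the difference for ZNF726 was 0. Repeated sequence covered 8.51% of this promoter window, counted as 31-base words that occur elsewhere on chromosome 19.

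The other two genes went the opposite way. ZNF66 held 0.195, 0.249 and 0 kb in unirradiated WT libraries, 0.511, 0 and 0.263 kb at 1 h and 0.762, 0.449 and 0.259 kb at 3 h, and 0 kb in all 9 ASH1L-/- libraries. ZNF730 held 0, 0.195 and 0.185 kb, then 0, 0.865 and 0.205 kb, and 0.545, 0.309 and 0.22 kb in WT cells, and was covered in 2 of 9 ASH1L-/- libraries, with 0.244 kb at 1 h and 0.252 kb at 3 h. WT levels of both genes overlapped those of ASH1L-/- cells, since each had WT libraries at 0.

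UV was next compared with no UV for every promoter, as the mean of 1 h and 3 h minus no UV, with limma over 14745 promoters and Benjamini-Hochberg adjusted p under 0.05. In WT cells 24 of the 81 promoters tested rose and 0 fell, against 30.5% rising and 0.0271% falling among all promoters. The median change was 0.263 kb, and 0.203 kb over all promoters. In ASH1L-/- cells 26 rose and 0 fell, against 24.0% and 0.258%, with a median of 0.242 kb and 0.174 kb over all. The share of the 81 promoters that rose was thus 29.6% in WT and 32.1% in ASH1L-/- cells. When every library was scaled to the same covered length, WT counts became 11 rising and 15 falling, against 2.64% and 52.3% of all promoters. The median of the set was then -0.229 kb, while the median over all promoters went from 0.20 to -0.61 kb. Under scaling the ASH1L-/- counts became 1 and 0, against 0.726% and 0.271%. The WT count also depended on single libraries, and was 14 without unirradiated replicate 1 and 6 without replicate 2. The ASH1L-/- count was 13 and 11 without unirradiated replicates 1 and 2. The shares of all promoters in these fits are not given, so a loss of calls particular to the set cannot be read from them.

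The largest rise of a promoter in WT cells was that of ZNF738, which held 1.14, 0.772 and 1.48 kb without UV, 2.42, 2.37 and 2.48 kb at 1 h and 1.94, 2.32 and 2.39 kb at 3 h. No irradiated WT library overlapped the unirradiated ones, and the difference was 1.19 ± 0.21 kb (limma, SE, adjusted p = 0.00198). ZNF738 in ASH1L-/- cells held 2.14, 1.1 and 1.4 kb, then 2.18, 2.77 and 2.07 kb, and 2.33, 2.15 and 2.06 kb, with a rise of 0.71 ± 0.21 kb (adjusted p = 0.0249). A single unirradiated library there lay within the range of the irradiated ones, and the ASH1L-/- call was lost without unirradiated replicate 2 (0.49 kb) or 3 (0.64 kb).

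ZNF257 was at or near 0 without UV in WT cells (0.195, 0 and 0 kb) and held 0.674, 0.572 and 1.1 kb at 1 h and 1.44, 0.808 and 0.616 kb at 3 h, a rise of 0.8 ± 0.19 kb (limma, adjusted p = 0.00893). The ASH1L-/- values of ZNF257 were 0 kb in all 3 unirradiated libraries, 0, 0.39 and 0.681 kb at 1 h and 0.603, 0 and 0 kb at 3 h, so that irradiated libraries overlapped the unirradiated ones. ZNF763 held 0 kb in every unirradiated WT library, 0.393, 0.895 and 0.397 kb at 1 h and 1.2, 0.368 and 1.18 kb at 3 h, a rise of 0.74 ± 0.19 kb (adjusted p = 0.0144). ZNF763 in ASH1L-/- cells ranged from 0 to 0.781 kb with overlapping groups. Without WT unirradiated replicate 2 the calls of ZNF257 (0.77 kb) and ZNF763 (0.74 kb) were lost. The promoters of ZNF91 and ZNF559 rose in WT cells by 0.77 ± 0.26 and 0.7 ± 0.24 kb (adjusted p = 0.0367 and 0.0383), and that of ZNF559 turned to -0.17 kb under scaling. Each of these 2 calls was lost in 6 of the 18 fits that left out a single library, all WT: without 1 h replicate 2 or 3, 3 h replicate 1 or 3 or unirradiated replicate 2, and also without unirradiated replicate 1 for ZNF91 and unirradiated replicate 3 for ZNF559. In those fits the rise was 0.65 to 0.79 kb for ZNF91 and 0.4 to 0.69 kb for ZNF559, the lowest without unirradiated replicate 2 in both.

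In ASH1L-/- cells the largest rise was that of ZNF557, a gene at 7.07 Mb with 10 fingers. Its promoter held 1.52, 1.42 and 1.45 kb without UV, 2.8, 2.71 and 2.46 kb at 1 h and 2.55, 2.61 and 2.37 kb at 3 h, a rise of 1.12 ± 0.13 kb (limma, adjusted p = 0.000181) with no overlap. In WT cells it held 1.97, 1.81 and 2.24 kb without UV, 2.31, 2.25 and 2.27 kb at 1 h, and 2.43, 2.14 and 2.85 kb at 3 h, and 1 irradiated library lay below the highest unirradiated one. ZNF266 and ZNF627 rose by 0.78 ± 0.14 kb each in ASH1L-/- cells (adjusted p = 0.00237), and ZNF708 by 0.77 ± 0.18 kb (adjusted p = 0.00966), a call lost without unirradiated replicate 1 (0.59 kb).

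The response to UV was compared between genotypes directly, as the UV change in WT cells minus that in ASH1L-/- cells. Of 81 promoters, 0 had a larger and 1 had a smaller change in WT cells by limma, against 0.861% and 0.19% of all promoters. At an unadjusted p under 0.05 the counts were 7 and 6. The share of all promoters at that cut is not given, so these counts cannot be called high or low. The gene with the smaller change was ZNF266, which lies at 8.51 to 9.79 Mb and has 12 fingers. It held 2.57, 2.71 and 3.17 kb in WT cells without UV, 2.85, 2.78 and 2.95 kb at 1 h and 2.79, 2.33 and 2.87 kb at 3 h, and these groups overlapped. ASH1L-/- libraries had 2.54, 2.47 and 2.7 kb, then 3.18, 3.38 and 2.99 kb, and 3.36, 3.64 and 3.56 kb, and the irradiated libraries were all above the unirradiated ones. The difference between the responses was -0.84 ± 0.19 kb (limma, SE, adjusted p = 0.0482), and this call was lost in 16 of the 18 fits that left out a single library. ZNF557 and ZNF44 came next, with -0.75 ± 0.18 kb (adjusted p = 0.0669) and 0.48 ± 0.13 kb (adjusted p = 0.105).

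Without UV, 2 of the 81 promoters were longer in ASH1L-/- than in WT cells and 0 were shorter, against 2.88% and 1.11% of all promoters (limma). They were ZNF726, described above, and ZNF44, a gene with 14 fingers. ZNF44 held 1.63, 1.96 and 1.85 kb in unirradiated WT libraries and 2.29, 2.17 and 2.5 kb in ASH1L-/- libraries, without overlap, a difference of 0.51 ± 0.11 kb (adjusted p = 0.0144). It was 0.42 kb and no longer called without WT unirradiated replicate 1 or ASH1L-/- unirradiated replicate 3. After UV the WT libraries of ZNF44 held 2 to 2.47 kb and those of ASH1L-/- cells 2.18 to 2.39 kb, and the genotypes overlapped. ZNF557 was lower in ASH1L-/- cells by 0.54 ± 0.15 kb, without passing the threshold (adjusted p = 0.0563). The number of promoters called fell to 1 without ASH1L-/- unirradiated replicate 1 or WT unirradiated replicate 1, to 0 without ASH1L-/- unirradiated replicate 3, and rose to 4 without WT 3 h replicate 2. Shares of all promoters in these fits are not given.

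H3K4me3 in the set was not limited to promoters. Along the first 20 kb from the start, coverage of the 83 genes in unirradiated WT cells was highest at the start with 64.8 ± 1.87% of bases in the best 500-base bin, fell to 2.52 ± 3.93% in the bin at 3.5 kb, and rose again to 20.0 ± 4.38% in the bin at 17.5 kb, which 62 genes reach. After UV the bin at 3.5 kb held 6.48 ± 1.1% at 1 h and 7.95 ± 2.22% at 3 h in WT cells, and 9.2 ± 2.74% and 12.2 ± 3.09% in ASH1L-/- cells (SD, n = 3). The highest later bin held 28.6 ± 1.43% and 31.1 ± 2.15% in WT cells and 29.4 ± 2.67% and 30.8 ± 4.06% in ASH1L-/- cells. It stood at 19.5 kb, which 56 genes reach, except at 18.5 kb (59 genes) in ASH1L-/- cells at 1 h. The bin at 19.5 kb is the last of the 20 kb examined. These values therefore compare different bins and genes with those of unirradiated WT cells.

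**Figure D3:**
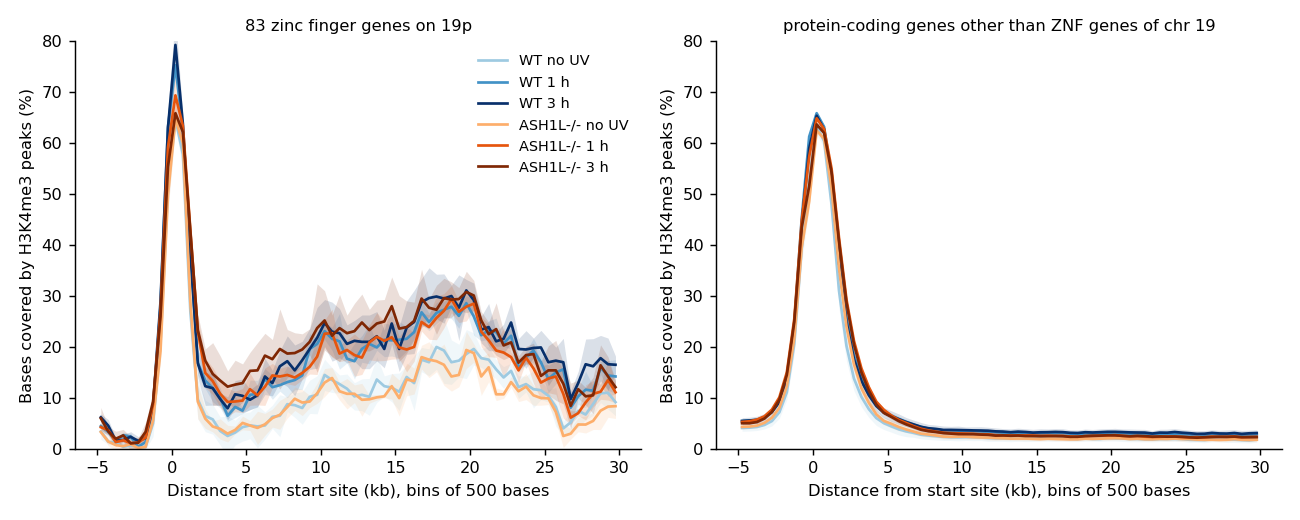
Percent of bases under H3K4me3 peaks (vertical axis) by distance from the gene start in kb (horizontal axis, 500-base bins) for the 83 genes, with bands of ± SD over 3 libraries of a group. A peak at the start, 64.8% in unirradiated WT cells, is followed by a low at 3.5 kb and a broad rise to 20.0% at 17.5 kb.

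The second rise lay over the last exons, which hold the finger arrays. In unirradiated WT cells peaks covered 28.3 ± 4.48% of the last exons of the 83 genes (SD, n = 3), 6.23% of the gene between promoter and last exon, 5.47% of the 5 kb after the gene end, and 29.6% of the promoter windows. In all genes other than the ZNF genes of chromosome 19 the last exon was covered to 2.88% and the promoter to 42.5%. The ZNF genes of chromosome 19 above 26 Mb had 47.8% and 55.6%, and ZNF genes of other chromosomes 28.7% and 58.2%. After UV the last exons of the 83 genes were covered to 39.0% at 1 h and 41.6% at 3 h in WT cells, and to 26%, 36.5% and 39.9% across the same times in ASH1L-/- cells.

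Last exons followed the position groups. At 8.51 to 9.79 Mb they were covered to 57.6%, 73.6% and 75.8% in WT cells and 55.0%, 71.4% and 74.2% in ASH1L-/- cells, and at 11.48 to 12.64 Mb to 52.2%, 68.1% and 70.4% and to 51.1%, 71.2% and 76.8%. In the centromere-proximal cluster the values were 4.4%, 9.8% and 12.1%, and 1.57%, 5.29% and 6.9%. In unirradiated WT cells 25 last exons had a mean coverage of at least 50% and 22 were at 0, and at 3 h the numbers were 36 and 12. The numbers in ASH1L-/- cells were 23 and 33 without UV and 38 and 16 at 3 h. Nearly full coverage was found for ZNF700 (100%, over 2.49 kb that begin 23.2 kb from the gene start), ZNF564 (98.5%), ZNF44 (95.8%), ZNF266 (95.3%) and ZNF69 (94.8%). The last exons of 10 genes were at 0 in all 18 libraries: ZNF358, ZNF414 and ZNF653, and in the centromere-proximal cluster ZNF85, ZNF493, ZNF257, ZNF729, ZNF98, ZNF730 and ZNF681.

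**Figure D4:**
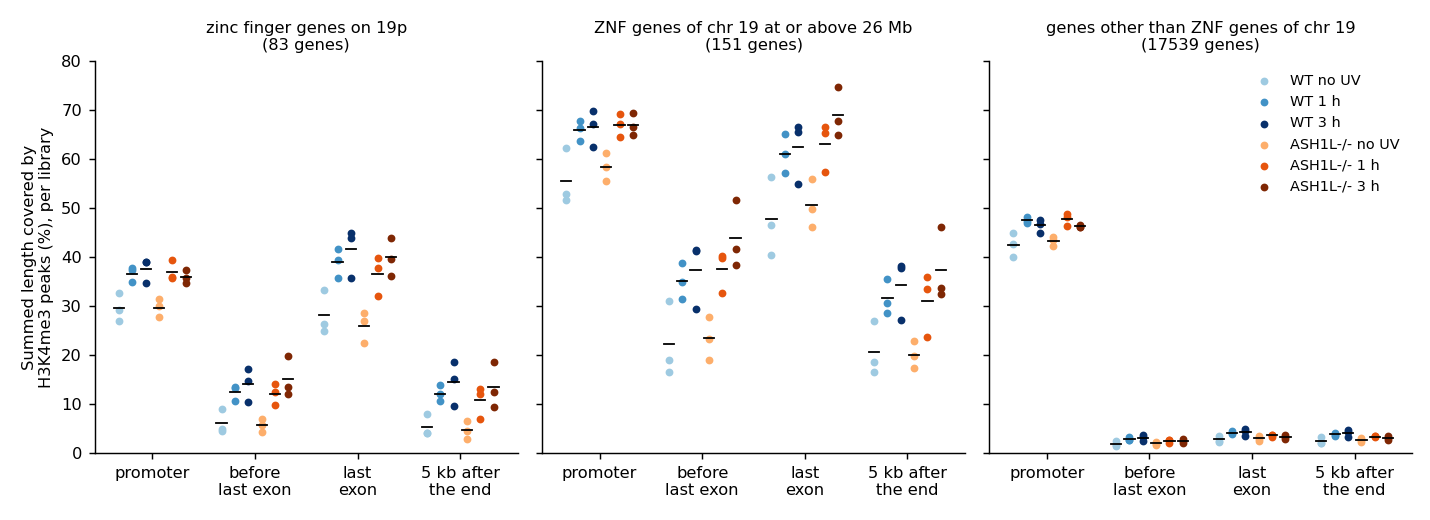
Percent of bases under H3K4me3 peaks (vertical axis) in 4 parts of a gene (horizontal axis: promoter, gene before the last exon, last exon, 5 kb after the end), with points for libraries and lines for group means, for the 83 genes and the comparison sets. The last exons of the 83 genes stand at 28.3% in unirradiated WT cells, against 2.88% in genes other than the ZNF genes of chromosome 19.

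Peaks over last exons were weaker than those at promoters. In unirradiated WT cells the median fold enrichment was 8.71 at the promoter and 4.1 at the last exon over 52 genes with both, and the last exon was higher in 2 of them. At 3 h the medians were 9.63 and 4.28 over 69 genes in WT cells and 5.85 and 4.45 over 57 genes in ASH1L-/- cells, with 12 and 23 genes higher at the last exon. Peaks of at least 5 kb over the 83 genes numbered 2, 4 and 8 in the unirradiated WT libraries, 11, 12 and 16 at 1 h and 17, 9 and 19 at 3 h. In ASH1L-/- libraries they numbered 5, 3 and 4, then 9, 11 and 12, and 21, 10 and 15. Over the whole genome such peaks numbered 624 to 1165 per WT library without UV and 1211 to 2017 after UV, and 718 to 969 and 1288 to 1878 per ASH1L-/- library, and 0.281 to 1.33% of them lay over the 83 genes. The longest over the set, of 19916 bp, overlapped ZNF699 and was longer than that gene. These genes are close copies of one another and reads of low mapping quality had been removed, which can lower coverage where copies match. Words of 31 bases that recur elsewhere on chromosome 19 made up a median of 18.8% of the last exons (0 to 76.4%, the highest in ZNF98), 23.2% in the centromere-proximal cluster and 7.47% at 8.51 to 9.79 Mb. The part of this in the differences between groups of genes was not tested.

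The covered length of gene bodies, from 2 kb past the start to the gene end, was tested in the same way over 12401 bodies, with 78 of the 83 genes passing the filter. After UV 33 bodies rose and 0 fell in WT cells, against 19% and 0.0726% of all bodies, and 31 rose and 0 fell in ASH1L-/- cells, against 8.2% and 0.96% (limma). These are 42.3% and 39.7% of the 78. The median change was 1.59 kb in WT and 1.61 kb in ASH1L-/- cells, compared with 0.429 and 0.262 kb over all bodies. ZNF genes above 26 Mb rose in 54 and 60 of 141, with medians of 2.52 and 3.53 kb. Scaled to equal covered length, the counts were 5 in WT and 33 in ASH1L-/- cells, against 3.23% and 8.38% of all bodies. The median over all bodies was then 0.09 and 0.14 kb. The WT count was 3 and 2 without unirradiated replicates 1 and 2, 18 without 1 h replicate 3, and 14 and 18 without 3 h replicates 1 and 3. The ASH1L-/- count was 11, 7 and 20 without unirradiated replicates 1, 2 and 3, 18 and 19 without 1 h replicates 2 and 3, and 20 without 3 h replicate 1. The shares of all bodies in these fits are not given. The counts therefore do not show whether the set lost calls more than other genes.

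Bodies of the groups at 8.51 to 9.79 Mb and 11.48 to 12.64 Mb rose in 8 of 12 and 8 of 24 genes in WT cells, and in 9 of 12 and 16 of 24 in ASH1L-/- cells. Their medians were 3.21 and 1.9 kb in WT cells and 3.97 and 3.26 kb in ASH1L-/- cells. In the centromere-proximal cluster 11 of 35 rose in WT cells and 2 of 35 in ASH1L-/- cells, with medians of 0.593 and 0.238 kb. For the difference between the responses, 0 bodies of the 78 were called in either direction by limma, against 3.52% and 0.29% of all bodies. With an unadjusted p under 0.05, 3 were larger and 4 smaller in WT cells, and the share of all bodies at that cut is not given. The difference in counts of the cluster is therefore not a tested difference between genotypes.

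**Figure D5:**
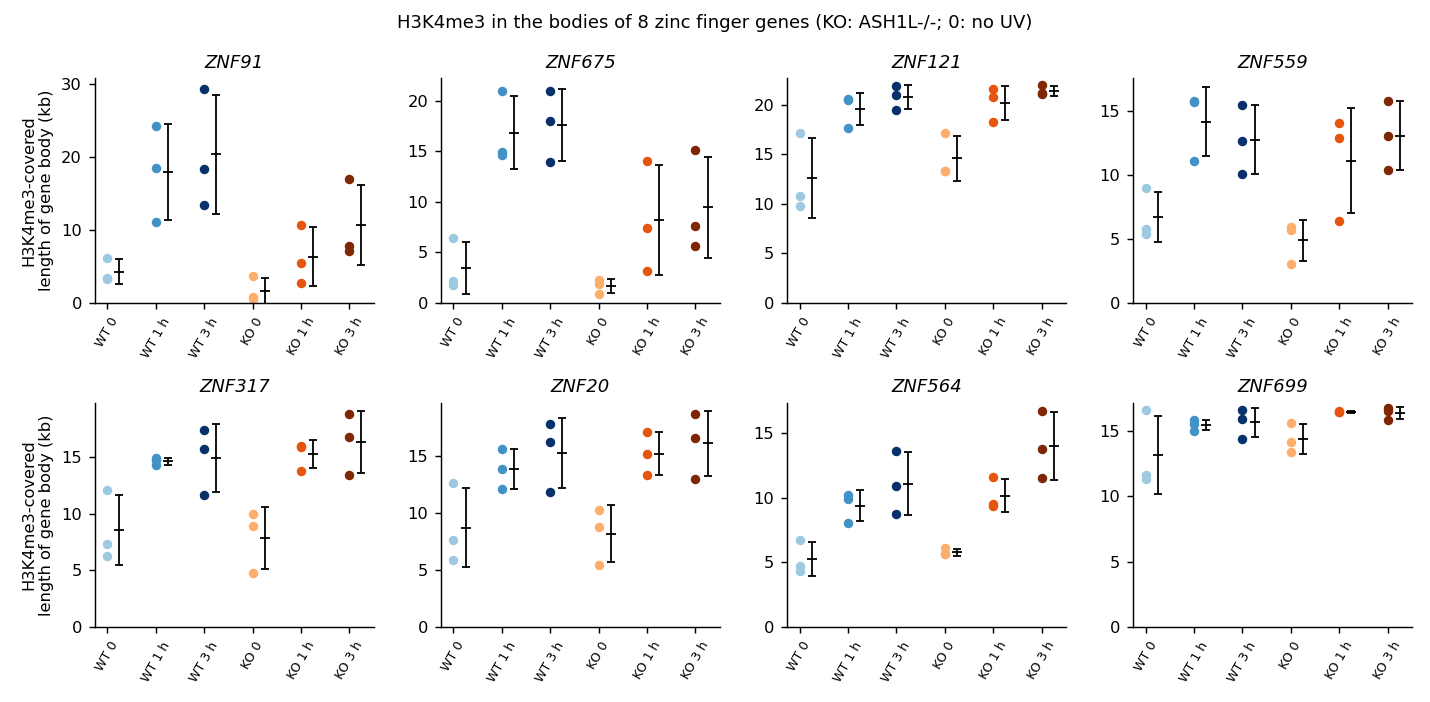
H3K4me3-covered length of the gene body in kb (vertical axis) for 8 genes by genotype and time (horizontal axis; KO, ASH1L-/-; 0, no UV), with a point for each library and bars for the mean ± SD of 3 libraries. ZNF91 goes from 3.18 to 6.17 kb without UV to 11 to 29.3 kb after UV in WT cells, while ZNF699 starts at 11.3 kb and ends near its full length.

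In WT cells the largest rises of a body were in the centromere-proximal cluster. ZNF91, which encodes a repressor of SVA retrotransposons, lies at chr19:23304991-23395471 on the minus strand. Its body held 3.34, 3.18 and 6.17 kb in unirradiated WT cells, 11, 24.2 and 18.5 kb at 1 h and 29.3, 13.4 and 18.3 kb at 3 h. No irradiated library overlapped the unirradiated ones, and the rise was 14.89 ± 3.4 kb (limma, SE, adjusted p = 0.011). It lost its call without unirradiated replicate 1 (14.45 kb) or 2 (14.37 kb). ZNF91 in ASH1L-/- cells held 0.787, 0.419 and 3.61 kb, then 2.75, 10.7 and 5.49 kb, and 17, 7.83 and 7.1 kb, and 1 library at 1 h lay below the highest unirradiated one. ZNF675, at chr19:23525631-23687220 on the minus strand, held 2.15, 1.77 and 6.37 kb, then 14.6, 14.9 and 21 kb, and 21, 13.9 and 18 kb in WT cells. These groups did not overlap, and the rise was 13.8 ± 2.5 kb (adjusted p = 0.00333). The body of ZNF675 in ASH1L-/- cells held 2.2, 0.896 and 1.86 kb, then 3.15, 14 and 7.39 kb, and 15.1, 5.57 and 7.6 kb, again without overlap. Neither gene differed in its response between genotypes by the adjusted test.

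The coverage of ZNF91 and ZNF675 ran past the end of their MANE transcripts, since both gene models are longer. Within the 37.8 kb transcript of ZNF91 the mean was 3.16 ± 1.34 kb without UV, 11.5 ± 4.5 kb at 1 h and 12.9 ± 4.12 kb at 3 h in WT cells (SD, n = 3). Beyond it, over 52.7 kb, the means were 1.07 ± 0.502, 6.38 ± 2.3 and 7.42 ± 4.27 kb. ZNF675 had 2.66 ± 1.96, 9.63 ± 1.71 and 9.43 ± 2.78 kb within its 34.4 kb transcript and 0.766 ± 0.731, 7.22 ± 2.21 and 8.2 ± 0.835 kb beyond it. The last exon of ZNF675 was covered to 1.21%, 20.1% and 43.5% in unirradiated WT libraries, to 80.5%, 100% and 100% at 1 h and to 100%, 79.8% and 88.5% at 3 h. In ASH1L-/- libraries the last exon of ZNF675 was at 19.8%, 30.0% and 24.4%, then 11.2%, 100% and 55.9%, and 100%, 32.6% and 41.3%. With peaks of at least 5-fold enrichment the rises of both bodies lost their calls, at 0.90 kb for ZNF91 and 2.13 kb for ZNF675. Words recurring on chromosome 19 made up 39.6% of the last exon of ZNF91 and 17.9% of that of ZNF675.

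ZNF121, ZNF559 and ZNF317, 3 genes at 8.51 to 9.79 Mb, rose in both genotypes. ZNF121 (chr19:9560329-9584504, minus strand) has 9 fingers and no KRAB pattern. Its body held 9.82, 10.8 and 17.2 kb in unirradiated WT cells, 17.7, 20.5 and 20.6 kb at 1 h and 21.9, 19.5 and 21 kb at 3 h, without overlap, a rise of 7.57 ± 1.7 kb (limma, adjusted p = 0.00896). The ASH1L-/- libraries of ZNF121 had 13.3, 13.3 and 17.2 kb, then 18.3, 21.6 and 20.8 kb, and 22, 21.1 and 21.2 kb, also without overlap, a rise of 6.23 ± 1.7 kb (adjusted p = 0.034). Both calls for ZNF121 were lost under scaling, at 2.35 and 4.27 kb. The WT call was also lost without unirradiated replicate 1 (6.18 kb) or 2 (6.66 kb), and the ASH1L-/- call in 10 of the 18 fits that left out a single library (5.58 to 6.23 kb), 5 of each genotype.

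The body of ZNF559 (chr19:9323772-9351162, plus strand, 9 fingers) rose by 6.79 ± 1.8 kb in WT cells and 7.25 ± 1.8 kb in ASH1L-/- cells (limma, adjusted p = 0.0234 and 0.0282). ZNF559 held 5.75, 5.37 and 8.98 kb in unirradiated WT libraries and 10.1 to 15.8 kb after UV, and 5.66, 3.02 and 5.96 kb in unirradiated ASH1L-/- libraries and 6.41 to 15.8 kb after UV, without overlap in either genotype. The WT call of ZNF559 was lost without 1 h replicate 3, 3 h replicate 1 or unirradiated replicate 1 or 2 (6.11 to 6.4 kb). Its ASH1L-/- call was lost without 1 h replicate 2 or 3, 3 h replicate 1 or any unirradiated replicate (6.32 to 7.79 kb). ZNF317 (chr19:9140397-9163424, plus strand, 13 fingers) rose by 6.21 ± 1.7 and 7.92 ± 1.7 kb (adjusted p = 0.0227 and 0.0143). In WT cells ZNF317 went from 6.28, 7.33 and 12.1 kb to 11.6 to 17.4 kb, so that 1 irradiated library lay within the unirradiated range. In ASH1L-/- cells ZNF317 went from 8.88, 4.75 and 9.96 kb to 13.4 to 18.8 kb without overlap. The WT call of ZNF317 was lost without 3 h replicate 1 or 3 or unirradiated replicate 1 or 2 (5.07 to 6.02 kb), and the ASH1L-/- call without unirradiated replicate 2 (6.36 kb).

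ZNF20 and ZNF564, at 11.48 to 12.64 Mb, were among the largest rises in ASH1L-/- cells. ZNF20 held 8.8, 5.44 and 10.3 kb without UV and 13 to 18.7 kb after UV, a rise of 7.5 ± 1.8 kb (limma, adjusted p = 0.0237). ZNF564 held 5.61, 5.62 and 6.09 kb without UV and 9.32 to 16.7 kb after UV, a rise of 6.3 ± 1.2 kb (adjusted p = 0.00982). Neither gene overlapped between irradiated and unirradiated ASH1L-/- libraries. In WT cells ZNF564 went from 4.73, 4.31 and 6.72 kb to 8.01 to 13.6 kb, and ZNF20 went from 7.62, 5.91 and 12.6 kb to 11.8 to 17.8 kb. The first did not overlap and the second did. The ASH1L-/- call of ZNF20 was lost without unirradiated replicate 1 (7.81 kb) or 2 (6.14 kb).

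Some bodies were covered over most of their length before UV. The highest means in unirradiated WT cells were 13.2 ± 2.98 kb for ZNF699, which is 78.8% of its body, 12.6 ± 4.01 kb for ZNF121 (56.8%), 10.3 ± 1.9 kb for ZNF557, 10.1 ± 2 kb for ZNF558 and 10 ± 2.52 kb for ZNF426. ZNF699 (chr19:9291140-9309838, minus strand, 14 fingers) held 11.3, 11.6 and 16.6 kb without UV and 14.4 to 16.6 kb after UV in WT cells, and 13.4 to 15.6 kb and 15.8 to 16.7 kb in ASH1L-/- cells. At the other end, 2 bodies were never covered.

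For the genotype contrasts of bodies no gene of the set passed the threshold. Closest in the response to UV was ZNF625, which held 0.895, 0.958 and 2.22 kb without UV and 1.66 to 3.16 kb after UV in WT cells, and 2.92, 1.37 and 2.87 kb and then 5.35 to 7.53 kb in ASH1L-/- cells. Its difference between the responses was -2.81 ± 0.75 kb (limma, adjusted p = 0.0519). ZNF440 had -3.18 ± 1.1 kb (adjusted p = 0.143) and turned to 0.54 kb with peaks of at least 5-fold enrichment, and ZNF554 had 1.23 ± 0.47 kb (adjusted p = 0.197). Scaling gave 5 smaller responses in WT cells, against 1.41% of all bodies. Without UV, 0 bodies differed between genotypes in either direction (limma, 0.556% and 0.0645% of all bodies), and 0 had an unadjusted p under 0.05. The smallest p-values belonged to ZNF442, with -1.37 ± 0.74 kb (adjusted p = 0.589), ZNF729, with -0.21 ± 0.12 kb (adjusted p = 0.608), and ZNF100, with -0.32 ± 0.18 kb (adjusted p = 0.634).

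The partners of KRAB zinc finger proteins were examined as a list of 32 genes for repression and heterochromatin. In WT cells 9 of 32 promoters (28.1%) and 9 of 31 bodies (29%) rose after UV and 0 fell, and in ASH1L-/- cells 9 promoters (28.1%) and 4 bodies (12.9%) rose and 0 fell (limma), to be read against the background shares given above. None of the list was called in the genotype contrasts. The promoter of TRIM28 held 2.09 ± 0.122 kb without UV, 2.74 kb at 1 h and 2.82 kb at 3 h in WT cells, and 1.66, 2.4 and 2.27 kb in ASH1L-/- cells, rises of 0.69 and 0.67 kb (adjusted p = 0.00355 and 0.00462). The promoter of SETDB1 changed by 0.12 kb in WT cells (adjusted p = 0.392) and rose by 0.43 kb in ASH1L-/- cells (adjusted p = 0.0156), while its body rose by 1.54 and 1.89 kb (adjusted p = 0.00444 and 0.00481). The body of ATRX, a chromatin remodeller found at zinc finger genes, rose by 2.52 and 3.34 kb (adjusted p = 0.0402 and 0.0212). ZNF274, a KRAB protein that binds the 3′ ends of zinc finger genes, is itself on chromosome 19 above 26 Mb. Its promoter rose by 0.69 and 0.62 kb (adjusted p = 0.00821 and 0.0154), and its body, with 23.1 ± 4.48 kb in unirradiated WT cells, changed by 5.04 and 3.68 kb without passing the threshold (adjusted p = 0.0752 and 0.223).

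XPC coverage is no part of the rule that defined the set. Its lists held 326438 to 500000 peaks per library, and 17 of the 19 held exactly 500000, so the lists cannot be compared by their number of peaks. A fixed number of peaks also limits the length a list can cover, which ran from 165.3 to 464.0 Mb, and its part in the XPC percentages and lengths given here was not tested. XPC peaks covered 2.85 ± 0.795% of the gene bodies of the set in unirradiated WT cells (SD, n = 4), against 13.5 ± 1.52% of all bodies, and 2.15 ± 0.74% against 12.4 ± 1.72% in ASH1L-/- cells (n = 3). After UV the set had 2.36 ± 1.03% at 1 h and 2.74 ± 1.51% at 3 h in WT cells and 2.62 ± 0.918% and 1.72 ± 1.43% in ASH1L-/- cells. ASH1L-/- 3 h replicate 1 was lowest with 0.224%.

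XPC coverage differed along the arm. The cuts at 8 and 20 Mb used here were not among the planned position groups. The 7 genes below 8 Mb were covered to 19.5%, 14.5%, 36.0% and 16.5% in the unirradiated WT libraries and to 12%, 8.81% and 9.78% in the ASH1L-/- libraries, without overlap. By position group, the 5 genes from ZNF554 to ZNF77 had 12.6 to 37.4% in WT and 7.5 to 14.2% in ASH1L-/- libraries, with overlap. ZNF557 and ZNF358 together had 21.3 to 30.5% and 2.33 to 13.8%. The 206 other genes of the chromosome below 8 Mb were covered to 45.0%, 34.6%, 58.7% and 14.2% in the same WT libraries and to 23.2%, 12.8% and 11.6% in the ASH1L-/- libraries, where 1 WT library lay within the ASH1L-/- range. The 45 genes between 8 and 20 Mb had 3.33 to 5.91% and 3.07 to 5.8%, with overlap. The 31 genes between 20 and 26 Mb were covered to 0 to 0.551% in all 19 libraries. The 6 bins of 1 Mb between 20 and 26 Mb were covered to 0 to 0.626%, the bin at 26 to 27 Mb was at 0 in every library, and the 51 other bins of the chromosome were covered to 0.999 to 68.2%. Bins around these genes were thus as sparsely covered as the genes themselves.

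By single genes, 63 bodies of the set could be tested for XPC. Without UV 0 were higher and 1 was lower in ASH1L-/- than in WT cells (limma), against 0.815% and 2.46% of all bodies. The gene was ZNF557, whose body was covered by XPC peaks over 3.17, 2.23, 4.07 and 4 kb in the WT libraries and 0.141, 1.98 and 0.289 kb in the ASH1L-/- libraries, without overlap. The difference was -2.56 ± 0.63 kb (limma, SE, adjusted p = 0.0245). The call was lost without ASH1L-/- unirradiated replicate 1 or 3 and without WT unirradiated replicate 3 or 4, with 0 genes called each time, and with peaks of −log10 p of at least 2 the difference was -0.09 kb. After UV, 0 bodies rose or fell in WT cells, against 0.0116% and 0.675% of all bodies, and 0 in ASH1L-/- cells, against 0.0% and 0.00582%. At an unadjusted p under 0.05, 1 rose and 2 fell in WT cells and 0 rose and 2 fell in ASH1L-/- cells, and the shares of all bodies at that cut are not given. The smallest p-values belonged to ZNF557 in WT cells, with -1.77 ± 0.53 kb (adjusted p = 0.147), and to ZNF414 in ASH1L-/- cells, with -1.25 kb (adjusted p = 0.716).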

How the data were processed

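H3K4me3 (18 lists) and XPC (19 lists) peaks were analysed, from the 37 peak lists of a series of 61 samples. Per the submitters' processing notes, reads were trimmed (Trim Galore 0.6.5), aligned to hg38 (BWA 0.7.17-r1188), stripped of duplicates, low mapping quality and blacklisted regions (Picard, SAMtools 1.7, bedtools 2.29.2), and peaks were called per library with MACS2 2.2.7.1. The deposited lists give peak start and end positions, a deposited fold enrichment (ratio over control) and deposited −log10 p and −log10 q values.

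Merged peaks were intersected with promoters (2 kb to each side of the GENCODE 44 MANE start) and gene bodies (2 kb past the start to the gene end, genes over 4 kb). Kilobases covered per window were fitted with limma 3.58.1 (R 4.3.3) over all genes, as group means with trended and robust moderation, in windows covered in at least 3 libraries, with Benjamini-Hochberg adjustment at 0.05 and UV as the mean of 1 h and 3 h minus no UV. Because the files hold no counts, no count model was used. The scripts (Python 3.11.15) were tested on simulated data. The read totals stated by the study were not used and no counting intervals were computed, and p-values measure the spread between libraries of 1 line per genotype. Finger and KRAB counts were taken from GENCODE coding sequence. Named genes were, per contrast, the 5 largest rises and falls called or else the 3 smallest p, the 5 highest and lowest promoters, the 5 highest bodies, promoters marked in a single genotype, the genes next to 26 Mb, and TRIM28, SETDB1, ATRX and ZNF274. Other examples, such as genes with the fullest last exons and the promoters printed, were chosen after their values were seen. The set and the gene lists were chosen with earlier results of these data known. Alternatives were stricter peaks, scaling, a 1 kb window, other filters, a replicate block and leaving out each library.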

Additional observations from a re-analysis of the deposited data

Results flagged for a closer look

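The promoter of ZNF266 responded differently to UV in the 2 genotypes by the test of the difference itself. The UV change in WT cells minus that in ASH1L-/- cells was -0.84 kb (limma, adjusted p = 0.0482), with irradiated ASH1L-/- libraries above the unirradiated ones in 6 of 6 and no such order in WT cells. The difference was 0 when the window was narrowed to 1 kb on each side, and it did not pass the threshold under scaling (-1.47 kb), with the 70000 strongest peaks (-0.71 kb), with peaks of at least 5-fold enrichment (-0.71 kb), with −log10 q of at least 1.3 (-0.78 kb) or with windows covered in at least 1 library (-0.84 kb).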

How the results depend on the processing

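Of the values for named genes under the alternatives, 799 kept their direction and side of the threshold, 115 lost a call, 12 gained one and 3 reversed: the UV change of the ZNF559 promoter in WT cells under scaling (-0.17 kb), the ZNF440 body in the difference of responses with peaks of at least 5-fold enrichment (0.54 kb) and the XPC change of ZNF442 in ASH1L-/- cells with −log10 p of at least 2 (0.08 kb). Counts of promoters after UV in WT cells (24) were 26 with mixed directions under scaling, 3 with peaks of at least 5-fold enrichment, where 54 promoters could be tested, and 13 with the 70000 strongest peaks. Among all promoters 4.55% rose in WT cells with 5-fold enrichment and 26.2% with the strongest peaks. In ASH1L-/- cells the counts (26) were 1 under scaling, 17 of 54 with 5-fold enrichment and, with a 1 kb window, 7 of 80. Among all promoters 0.726%, 14.1% and 14.3% rose under these settings. For the difference of responses at promoters (1) the counts were 0 with −log10 q of at least 1.3, with windows covered in at least 1 library and with a 1 kb window. They were 2 with 5-fold enrichment, against 1.32% of all promoters in that direction. With the 70000 strongest peaks 1 of the opposite direction was called, against 0.579%. For ASH1L-/- minus WT cells without UV (2) the counts were 1 under scaling, 3 (0 higher, 3 lower) with 5-fold enrichment and 3 (1 higher, 2 lower) with a 1 kb window. Among all promoters 0.855% were higher under scaling. The shares higher and lower were 1.41% and 6.1% with 5-fold enrichment and 1.41% and 2.34% with a 1 kb window. Bodies after UV in WT cells (33) were 5 under scaling, 6 of 41 with 5-fold enrichment and 20 of 67 with the strongest peaks. The shares of all bodies that rose were 3.23%, 11.6% and 13.3%. In ASH1L-/- cells (31) they were 7 of 41 with 5-fold enrichment, against 8.54% of all bodies. For the difference of responses in bodies (0) the counts were 1 with −log10 q of at least 1.3 and 5 under scaling. All of these were smaller in WT cells, against 0.252% and 1.41% of all bodies. The XPC count (1) was 0 under scaling and with −log10 p of at least 2. The cause of these changes was not tested, beyond the smaller number of windows under stricter peaks.

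Leaving out 1 library at a time gave the following counts, for which the shares of all genes are not given. They were 6 to 34 promoters after UV in WT cells, 11 to 28 in ASH1L-/- cells, 0 to 2 for the difference and 0 to 4 without UV. Bodies gave 2 to 42, 7 to 40, 0 to 2 and 0 to 0, and the XPC count 0 to 1. The promoters marked in unirradiated WT cells (56) became 53 to 55. Here coverage was required in every library left, a stricter rule than 2 of 3, so this count could not rise. Same-numbered libraries of different groups had deviations correlated above 0.1 in 18 of 45 pairs at promoters and 32 of 45 at bodies. Their median correlation was 0.0954 at promoters and 0.342 at bodies, against -0.036 and -0.182 for libraries with different numbers. Libraries with the same number thus tended to deviate together at bodies, and the main fit had no block for this. What the numbers share was not tested. With the replicate number as a block, 26, 25, 1 and 3 promoters and 37, 34, 1 and 0 bodies were called, in the order above, and 0 XPC bodies. With the block 27.6% of all bodies rose after UV in WT cells and 11.9% in ASH1L-/- cells, and 32.1% and 25.4% of all promoters. The lists hold no read counts, and the absence of a peak shows only that none was called.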
